A study of Mus musculus with 6 samples.

Results

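Cholesterol and fatty acid synthesis in the colonic mucosa was followed through 30 genes, 22 of cholesterol synthesis and its control and 8 of fatty acid synthesis. They were taken by gene symbol from the deposited table, and 27 had a row with their symbol alone (each row is a transcript cluster, the probes that the array design assigns to a gene), out of 23521 such clusters in all. Each of the 27 had 1 cluster. Idi1 and Scd2 sit on clusters that also carry another symbol, and Acat2 has no cluster with its symbol here, so these 3 genes were not analysed and 20 cholesterol genes and 7 fatty acid genes were left.

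The mice were 6 males on the BALB/cAnN background, backcrossed for at least 10 generations, with 1 Affymetrix Mouse Gene 2.0 ST array per mouse. Of these, 2 were Mthfd1S+/- (heterozygous, deficient in the synthetase activity of the folate enzyme MTHFD1) and 4 were Mthfd1S+/+ (wild type, WT). Animals of both genotypes had received azoxymethane (AOM, a colon carcinogen, 6 mg/kg) at 3 months of age. They then drank 3% dextran sulfate sodium (DSS, a polymer toxic to colonic epithelium) in 2 cycles of 4 days, and were killed 13 weeks after the injection (the labels give an age of 7 months). The tissue was mucosa that looked normal, taken beside tumours, and no group without AOM and DSS was analysed here. The study asks how the synthetase deficiency bears on the colon in this tumour model, and a group of 2 mice limits every comparison of genotypes below. The labels call the arrays biological replicates, each with a mouse identifier of its own, so differences between mice are part of the spread between arrays.

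Cells build cholesterol from acetyl-CoA through mevalonate, squalene and lanosterol, and nearly all enzymes of the route are switched on by the transcription factor SREBP2, which the sterol content of the endoplasmic reticulum holds back through SCAP and the INSIG proteins. The related SREBP1 acts mainly on genes that make, elongate and desaturate fatty acids, and its best known form is also raised by insulin and by liver X receptors. In the gut both routes serve the membranes of a rapidly renewed epithelium, and cholesterol synthesis answers to the sterol supply of the cell.

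Array medians ran from 5.485 to 5.532 on the log2 scale. Epithelial markers were bright, with Epcam at 11.40 and 11.32 in the Mthfd1S+/- mice, against 11.44, 11.47, 11.44 and 11.39 in the WT mice, and the goblet cell mucin Muc2 at 13.39 and 13.50 in the Mthfd1S+/- mice, against 13.38, 13.40, 13.46 and 13.51 in the WT mice. Muscle was present too. The smooth muscle myosin Myh11 read 11.66 and 12.02 in the Mthfd1S+/- mice, against 11.51, 11.43, 11.64 and 11.78 in the WT mice. The fat cell hormone Adipoq was dim, at 3.91 and 4.16 in the Mthfd1S+/- mice, against 4.85, 4.36, 6.04 and 4.52 in the WT mice. Adipocyte markers together ran from 3.91 to 10.53 in single arrays, so they were not all dim. Mthfd1 itself stood at 7.96 and 7.63 in the Mthfd1S+/- mice, against 7.64, 7.63, 7.50 and 7.75 in the WT mice (log2 difference 0.17 ± 0.12 SE, adjusted p 0.890 in limma). Since no label states whether the allele lowers the transcript, the level of Mthfd1 is no check of genotype.

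The Mthfd1S+/- mice did not agree on these genes. Mouse 1 stood above all 4 WT mice for 11 of the 20 cholesterol genes and 1 of the 7 fatty acid genes, against 23.7% of all tested clusters. Mouse 2 stood below all WT mice for 19 of the 20 and 5 of the 7, against 21.9% of clusters, and was the lowest of all 6 mice for the same 24 genes, against 19.1% of clusters. These shares, here and below, are over clusters of every level. The median log2 level was 5.97 over all tested clusters and 9.03 over the 27 genes. Shares among clusters of a like level were not computed. Across the 20 cholesterol genes the median log2 distance from the WT mean was 0.15 in Mthfd1S+/- mouse 1 and -0.59 in Mthfd1S+/- mouse 2, where all tested clusters had medians of 0.019 and 0.0040. With both mice together, 0 of the 27 genes passed the adjusted threshold of 0.05 in limma, as did 0.00% of all clusters.

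**Figure D1:**
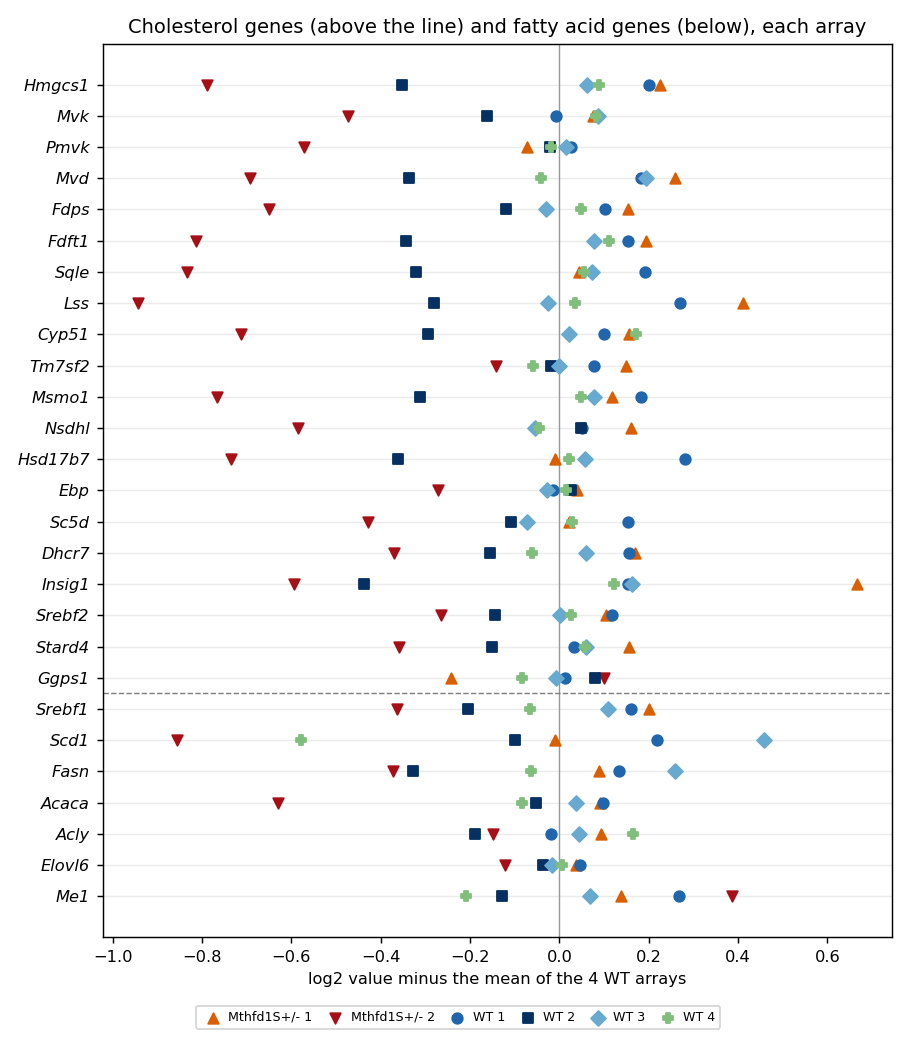
Log2 value of each measured gene in each of the 6 arrays, minus the mean of the 4 WT arrays. Triangles are the 2 Mthfd1S+/- mice and other symbols the 4 WT mice. Mthfd1S+/- mouse 2 lies at the left edge for 24 of the 27 genes, and WT mouse 2 is the lowest of the WT mice for 20.

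In the first steps of the route, Hmgcs1, which condenses acetoacetyl-CoA with acetyl-CoA, read 11.27 and 10.26 in the Mthfd1S+/- mice, against 11.24, 10.69, 11.11 and 11.13 in the WT mice. Mthfd1S+/- mouse 1 was thus the highest and mouse 2 the lowest of the 6, a 2.02-fold gap, and the groups overlapped. The 2 kinases that phosphorylate mevalonate were Mvk, at 7.44 and 6.89 in the Mthfd1S+/- mice, against 7.36, 7.20, 7.45 and 7.45 in the WT mice, and Pmvk, at 8.10 and 7.60 in the Mthfd1S+/- mice, against 8.20, 8.15, 8.19 and 8.15 in the WT mice. For Mvk Mthfd1S+/- mouse 1 lay among the WT mice and mouse 2 below them. Pmvk was the only gene of the 27 whose Mthfd1S+/- values both lay under all WT values, the WT mice spanning only 0.048 on the log2 scale. Mvd, which decarboxylates the product to isopentenyl diphosphate, read 8.63 and 7.68 in the Mthfd1S+/- mice, against 8.56, 8.04, 8.57 and 8.33 in the WT mice, again with the Mthfd1S+/- mice at the 2 ends.

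In the branch and squalene steps, Fdps, the farnesyl diphosphate synthase, stood at 9.51 and 8.71 in the Mthfd1S+/- mice, against 9.46, 9.24, 9.33 and 9.41 in the WT mice. Fdft1, the squalene synthase, read 10.79 and 9.78 in the Mthfd1S+/- mice, against 10.75, 10.25, 10.67 and 10.70 in the WT mice. Both genes had Mthfd1S+/- mouse 1 just above the WT range and mouse 2 well below it, 1.76-fold under the WT mean for Fdft1. Sqle, the epoxidase that is a second point of control of the route, read 9.20 and 8.32 in the Mthfd1S+/- mice, against 9.35, 8.84, 9.23 and 9.21 in the WT mice; here Mthfd1S+/- mouse 1 lay inside the WT range. Ggps1 makes geranylgeranyl diphosphate for protein prenylation, on a side branch that does not lead to sterols, and had another order of mice. It stood at 7.56 and 7.90 in the Mthfd1S+/- mice, against 7.82, 7.88, 7.80 and 7.72 in the WT mice, with Mthfd1S+/- mouse 1 as the lowest and mouse 2 as the highest of the 6.

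Lss, which folds the epoxide into lanosterol, had the widest gap of the 27 between the Mthfd1S+/- mice. Its values were 8.9997 and 7.65 in the Mthfd1S+/- mice, against 8.86, 8.31, 8.56 and 8.63 in the WT mice, so that Mthfd1S+/- mouse 2 was 2.55-fold below Mthfd1S+/- mouse 1 and 1.92-fold below the WT mean. Cyp51, the lanosterol demethylase, read 9.29 and 8.42 in the Mthfd1S+/- mice, against 9.24, 8.84, 9.16 and 9.31 in the WT mice, and Msmo1, which oxidises the methyl groups that are removed next, 9.64 and 8.76 in the Mthfd1S+/- mice, against 9.71, 9.21, 9.60 and 9.57 in the WT mice. In both genes the WT mice 1, 3 and 4 and the first Mthfd1S+/- mouse sat close together and WT mouse 2 lay between them and Mthfd1S+/- mouse 2. Nsdhl and Hsd17b7 act in the same removal of methyl groups. Nsdhl read 10.20 and 9.45 in the Mthfd1S+/- mice, against 10.09, 10.09, 9.98 and 9.99 in the WT mice, with a narrow WT range that did not single out WT mouse 2. Hsd17b7 read 8.10 and 7.37 in the Mthfd1S+/- mice, against 8.39, 7.75, 8.17 and 8.13 in the WT mice, with the widest WT range among the cholesterol genes.

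Tm7sf2, a sterol reductase, read 8.22 and 7.93 in the Mthfd1S+/- mice, against 8.15, 8.06, 8.07 and 8.02 in the WT mice. Ebp, the sterol isomerase, stood at 8.99 and 8.68 in the Mthfd1S+/- mice, against 8.94, 8.98, 8.93 and 8.97 in the WT mice; its WT mice agreed within 0.055, and Mthfd1S+/- mouse 2 was 1.21-fold below their mean. Sc5d, a sterol desaturase, read 9.57 and 9.13 in the Mthfd1S+/- mice, against 9.71, 9.44, 9.48 and 9.58 in the WT mice, and Dhcr7, which reduces a double bond of the sterol ring at the end of the route, 10.09 and 9.55 in the Mthfd1S+/- mice, against 10.07, 9.77, 9.98 and 9.86 in the WT mice. Mthfd1S+/- mouse 2 was the lowest for all 4 of these genes, at -0.14 to -0.43 from the WT mean on the log2 scale, where Lss had -0.94.

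Among the genes that sense and carry sterol, Mthfd1S+/- mouse 2 was again the lowest of all and WT mouse 2 the lowest of the WT mice. Insig1, which holds SCAP and the SREBPs in the endoplasmic reticulum and is itself an SREBP target, read 11.21 and 9.95 in the Mthfd1S+/- mice, against 10.70, 10.11, 10.71 and 10.67 in the WT mice. Mthfd1S+/- mouse 1 was 0.67 above the WT mean on the log2 scale, the farthest above it of the 27 genes in that mouse, and mouse 2 was 2.40-fold under mouse 1. Srebf2, which encodes SREBP2, read 9.82 and 9.45 in the Mthfd1S+/- mice, against 9.83, 9.57, 9.71 and 9.74 in the WT mice. Stard4, a cytosolic sterol carrier, stood at 8.74 and 8.23 in the Mthfd1S+/- mice, against 8.62, 8.44, 8.65 and 8.64 in the WT mice. The distances of Mthfd1S+/- mouse 2 from the WT mean were -0.26 for Srebf2 and -0.36 for Stard4, smaller than for the enzymes from Hmgcs1 to Hsd17b7 other than Tm7sf2 and Ggps1.

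The promoters of these genes were searched for the motifs through which SREBPs and their partners are known to act. Windows of 300 bases, from 250 before to 50 after a start, were taken from RefSeq (GRCm38.p6, the C57BL/6J genome and not that of BALB/c) and covered 22 of the 27 genes in 28 windows. The letters CCAAT, the box bound by the factor NF-Y, were found on either strand in at least 1 window of all 16 cholesterol genes covered and of 4 of the 6 fatty acid genes, against 41.1% of all 27025 symbols with a window. A sterol regulatory element in the form TCACNCCAC was found for 1 gene, Hmgcs1, against 1.44% of symbols, and in the longer form with an A before it for 0 (0.270%). The E box CACGTG occurred for 4 genes, Dhcr7, Hsd17b7, Insig1 and Sc5d (8.09% of symbols), and GGGCGG for 17 of the 22 (38.2%). None of these 4 motifs shared letters with another in the 4 windows printed next. A match here is a description of letters and not of a bound site, and no match says only that the letters are not in these windows.

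The promoters of Hmgcs1, Lss and Insig1 are shown for the genes with wide gaps between the Mthfd1S+/- mice, and that of Ggps1 for the cholesterol gene that did not share the pattern. Capitals mark the CCAAT box, read on either strand, the sterol element of Hmgcs1 and the E box of Insig1, and each runs 5′ to 3′ on the strand of its gene. Hmgcs1 is at chr13:119690101-119690400 on the plus strand, Lss at chr10:76531355-76531654 on the plus strand, Insig1 at chr5:28071162-28071461 on the plus strand and Ggps1 at chr13:14063439-14063738 on the minus strand, all in GRCm38.p6.
Hmgcs1: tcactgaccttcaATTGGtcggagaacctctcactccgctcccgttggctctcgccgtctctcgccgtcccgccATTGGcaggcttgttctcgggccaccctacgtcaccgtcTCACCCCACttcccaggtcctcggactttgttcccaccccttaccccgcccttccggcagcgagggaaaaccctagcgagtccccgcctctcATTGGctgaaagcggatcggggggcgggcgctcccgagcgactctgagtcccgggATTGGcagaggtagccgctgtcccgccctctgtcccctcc
Lss: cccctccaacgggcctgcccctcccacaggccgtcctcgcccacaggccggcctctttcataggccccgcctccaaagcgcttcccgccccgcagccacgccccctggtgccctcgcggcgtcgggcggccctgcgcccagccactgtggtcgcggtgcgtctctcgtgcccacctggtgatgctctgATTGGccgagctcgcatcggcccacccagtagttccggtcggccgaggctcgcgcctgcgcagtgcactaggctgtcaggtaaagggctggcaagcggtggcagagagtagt
Insig1: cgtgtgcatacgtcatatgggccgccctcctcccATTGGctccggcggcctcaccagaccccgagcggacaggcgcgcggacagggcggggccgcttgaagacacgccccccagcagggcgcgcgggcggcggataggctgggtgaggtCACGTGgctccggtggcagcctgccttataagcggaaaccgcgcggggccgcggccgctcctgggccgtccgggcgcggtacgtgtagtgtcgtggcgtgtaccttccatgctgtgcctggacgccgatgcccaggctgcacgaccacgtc
Ggps1: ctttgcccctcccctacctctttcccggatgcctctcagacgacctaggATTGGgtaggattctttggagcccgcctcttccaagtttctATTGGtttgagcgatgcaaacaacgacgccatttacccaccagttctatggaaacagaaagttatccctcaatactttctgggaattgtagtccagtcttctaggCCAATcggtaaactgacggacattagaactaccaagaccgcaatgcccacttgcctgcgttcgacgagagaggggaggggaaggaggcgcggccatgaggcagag
Hmgcs1 holds CCAAT 4 times, Ggps1 holds it 3 times, and Lss and Insig1 hold it 1 time each.

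Among the fatty acid genes the mice were ordered less evenly. Srebf1, which encodes SREBP1, read 7.96 and 7.39 in the Mthfd1S+/- mice, against 7.92, 7.56, 7.87 and 7.69 in the WT mice, with Mthfd1S+/- mouse 1 highest, mouse 2 lowest and WT mouse 2 next to it, as for Hmgcs1. Acly, which makes cytosolic acetyl-CoA for both routes, stood at 9.85 and 9.61 in the Mthfd1S+/- mice, against 9.74, 9.57, 9.80 and 9.92 in the WT mice, where WT mouse 2 and not a Mthfd1S+/- mouse was the lowest. Acaca, the acetyl-CoA carboxylase, read 8.08 and 7.36 in the Mthfd1S+/- mice, against 8.09, 7.94, 8.03 and 7.91 in the WT mice, with Mthfd1S+/- mouse 2 1.55-fold below the WT mean and outside a WT range of 0.18. Fasn, the fatty acid synthase, read 9.72 and 9.25 in the Mthfd1S+/- mice, against 9.76, 9.30, 9.88 and 9.56 in the WT mice; Mthfd1S+/- mouse 2 and WT mouse 2 lay close together at the low end.

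Scd1, which puts the double bond into stearate, varied more among the WT mice than any other of the 27 genes, with 8.93 and 8.08 in the Mthfd1S+/- mice, against 9.16, 8.84, 9.40 and 8.36 in the WT mice. Its WT range was 1.04 on the log2 scale, and Mthfd1S+/- mouse 2, at -0.86 from the WT mean, lay nearer to WT mouse 4 than WT mouse 2 did. Elovl6, which elongates palmitate, had the smallest gap between the Mthfd1S+/- mice, at 10.22 and 10.07 in the Mthfd1S+/- mice, against 10.23, 10.15, 10.17 and 10.19 in the WT mice. Me1, which supplies NADPH, read 7.75 and 7.99 in the Mthfd1S+/- mice, against 7.88, 7.48, 7.68 and 7.40 in the WT mice, and here Mthfd1S+/- mouse 2 was the highest of the 6.

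Set side by side per mouse, the set means followed each other only in part. With each gene centred on its mean over the 6 arrays, the cholesterol genes averaged 0.21 and -0.48 in Mthfd1S+/- mice 1 and 2, against 0.19, -0.12, 0.10 and 0.098 in WT mice 1 to 4. The fatty acid genes averaged 0.13 and -0.27 in the Mthfd1S+/- mice, against 0.16, -0.11, 0.17 and -0.083 in the WT mice. In both sets Mthfd1S+/- mouse 2 was the lowest of all mice and WT mouse 2 the lowest of its genotype. The set means parted in WT mouse 4, which was near WT mice 1 and 3 in cholesterol genes and close to WT mouse 2 in fatty acid genes. Scd1, Acaca and Me1 had their WT minimum there, while Acly had its highest value of the 6 mice there (9.92). Scd1, with the widest WT range of the 27 genes, read 8.36 there against a WT mean of 8.94 and weighs on this mean of 7 genes.

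**Figure D2:**
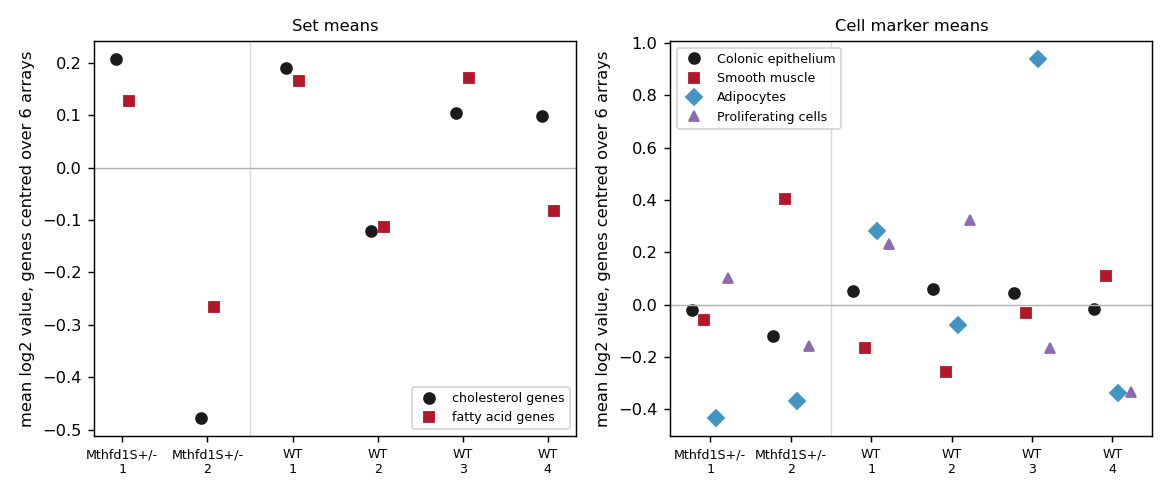
Mean log2 value per array of the cholesterol and fatty acid genes (left) and of 4 lists of cell markers (right), each gene centred on its mean over the 6 arrays. Each point is 1 list in 1 mouse, the 2 Mthfd1S+/- mice to the left of the 4 WT mice. The cholesterol mean is -0.48 in Mthfd1S+/- mouse 2, where the smooth muscle mean is 0.40.

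Mthfd1S+/- mouse 2 was at least 1.5-fold below mouse 1 for 11 of the 20 cholesterol genes and 2 of the 7 fatty acid genes, against 1.45% of all tested clusters. The median difference, mouse 2 minus mouse 1, was -0.74 for cholesterol genes, -0.46 for fatty acid genes and -0.015 over all clusters, whose percentiles 5 and 95 were -0.39 and 0.38. Mouse 2 read below mouse 1 for 19 of the 20 and 6 of the 7 genes, against 52.9% of clusters. The Mthfd1S+/- mice lay on opposite sides of the WT mean for 18 of the 20 and 5 of the 7, against 43.4% of clusters. With 1 array per mouse, the gap between these mice has no replicate and no test.

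**Figure D3:**
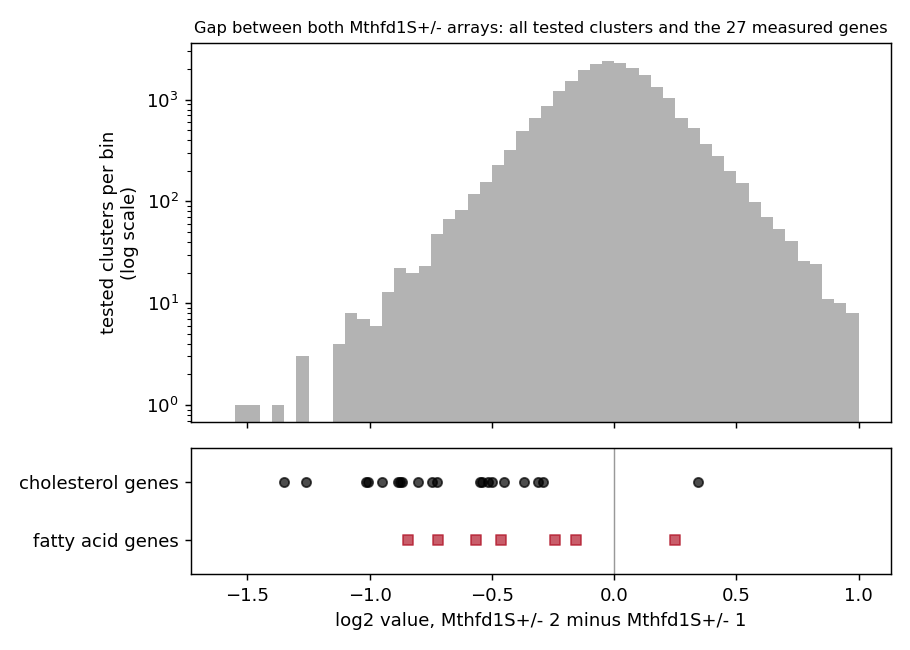
Log2 value in Mthfd1S+/- mouse 2 minus that in Mthfd1S+/- mouse 1. The upper panel counts the tested clusters per bin on a log scale (37 clusters lie beyond its edges), and the lower panel shows the 20 cholesterol and 7 fatty acid genes as points. The cholesterol genes run from -1.35 for Lss to -0.29 for Tm7sf2, with Ggps1 alone above 0.

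Within WT, mouse 2 was the low one. It had the lowest WT value for 16 of the 20 cholesterol genes and 4 of the 7 fatty acid genes, against 26.1% of all tested clusters. Its median distance from the mean of the other WT mice was -0.21 for cholesterol genes and -0.0064 over all clusters. WT mice 1, 3 and 4 differed by 0.041 for Insig1 and 0.14 for Hmgcs1, where WT mouse 2 lay -0.58 and -0.47 from their mean. The WT standard deviation (SD) had a median of 0.13 over the cholesterol genes, 0.17 over the fatty acid genes and 0.11 over all clusters. The Mthfd1S+/- mean of Hmgcs1 was 10.76 ± 0.72 (SD, n = 2), against 11.04 ± 0.24 (SD, n = 4) in WT.

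Compared by genotype, 24 of the 27 genes had the lower mean in Mthfd1S+/- mucosa, against 46.0% of all clusters. The median log2 difference was -0.21 over the cholesterol genes, -0.082 over the fatty acid genes and 0.012 over all clusters. These differences did not hold up against the spread between mice. At an unadjusted p under 0.05 in limma only Pmvk was lower, at -0.32 ± 0.13 (SE; adjusted p 0.837, exact permutation p 0.0667, the smallest that 6 arrays allow), and 0 genes were higher. All clusters gave 2.44% lower and 3.36% higher by that rule, so 1 gene of 27 is near the background. Pmvk lost this call when any 1 of the WT mice was left out (limma p, not adjusted, 0.0579 to 0.0698). In those fits Me1 was higher (0.35) without WT mouse 1, Hsd17b7 lower (-0.49) without WT mouse 2 and Scd1 lower (-0.63) without WT mouse 4 by the same rule, and without WT mouse 3 there was no such gene. Unmoderated least squares also gave 0 adjusted calls over all clusters.

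The intervals were wide. For Sqle the difference was -0.39 ± 0.23 (SE) with a 95% interval of -0.92 to 0.14, and for Hsd17b7 it was -0.37 ± 0.22. Lss had -0.27 with an interval of -0.996 to 0.46, and Insig1 0.035 with -0.69 to 0.76. Scd1 had -0.43 (-1.13 to 0.26) and Me1 0.26 (-0.068 to 0.59). Elovl6, the most tightly measured, had -0.042 (-0.24 to 0.15). Both Mthfd1S+/- values lay below all WT values for 1 of the 27 genes (6.04% of clusters) and above them for 0 (7.96% of clusters).

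For 23 of the 27 genes the sign of the difference changed with the Mthfd1S+/- mouse that was kept. With mouse 2 as the only Mthfd1S+/- array, 17 of the 20 cholesterol genes and 2 of the 7 fatty acid genes were lower at an unadjusted p under 0.05, against 3.61% of clusters, and 0 were higher (4.60%). With mouse 1 as the only one, 0 genes were lower (2.24% of clusters) and 1, Insig1, was higher (3.50%). In both of these fits 0 genes passed the adjusted threshold, and the lone array is assumed to vary as the WT arrays do. The mean difference of the cholesterol genes was -0.20 with both mice, -0.54 with mouse 2 alone and 0.14 with mouse 1 alone. For the fatty acid genes the same means were -0.10, -0.30 and 0.091.

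**Figure D4:**
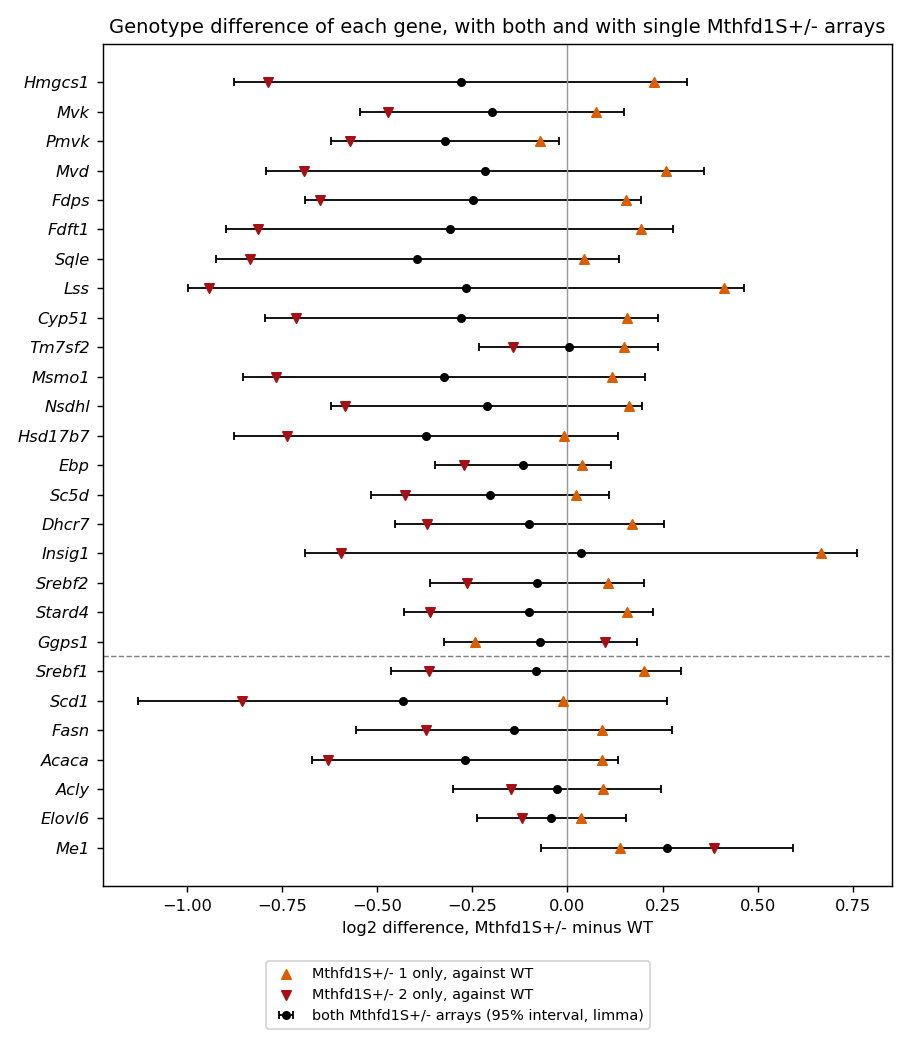
Log2 difference, Mthfd1S+/- minus WT, of each measured gene. Black points with bars are the estimates from both Mthfd1S+/- arrays with the 95% interval of limma, and triangles show each Mthfd1S+/- array alone against the 4 WT arrays. For 23 of the 27 genes the triangles stand on opposite sides of 0, and only the interval of Pmvk leaves out 0.

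Cell markers differed between the same mice. The smooth muscle list (10 of 10 genes measured) averaged -0.058 and 0.40 in the Mthfd1S+/- mice, against -0.26 to 0.11 in the WT mice, and the colonic epithelium list (6 of 6) averaged -0.019 and -0.12, against -0.015 to 0.059. Mthfd1S+/- mouse 2 thus had the highest muscle mean and the lowest epithelial mean, at -0.12 where its cholesterol mean was -0.48. The epithelial genes did not all share this order. Mthfd1S+/- mouse 2 was the lowest mouse for 4 of the 6, against 19.1% of all clusters, and the highest for Cdx1 (9.29). WT mouse 2, the low WT mouse in cholesterol genes, had the lowest muscle mean (-0.26) and the highest epithelial mean (0.059) of the 6. When the smooth muscle mean entered the fit as a covariate, the mean genotype difference was -0.023 for the cholesterol genes and 0.024 for the fatty acid genes. In these bulk samples fewer cells of a type and less RNA per cell cannot be told apart.

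Absorptive colonocytes (8 of 10 genes measured) gave 0.048 and -0.075 in the Mthfd1S+/- mice, against -0.0017 to 0.021 in WT, and goblet cells (7 of 7) -0.089 and 0.011, against -0.053 to 0.086. Markers of dividing cells (5 of 6) gave 0.10 and -0.16, against -0.33 to 0.32, with WT mouse 2 as the highest. The adipocyte list (10 of 11) averaged -0.43 and -0.37 in the Mthfd1S+/- mice, against 0.28, -0.077, 0.94 and -0.34 in the WT mice. For Scd1 the WT mice stood in the same order, but the Mthfd1S+/- mice did not keep to it. Mouse 1, with the lowest adipocyte mean of all mice, read 8.93 for Scd1, above WT mouse 2 (8.84) and WT mouse 4 (8.36). Mthfd1S+/- mouse 2 had a higher adipocyte mean than mouse 1 and the lowest Scd1 value (8.08). The Scd1 difference of -0.43 was 0.0038 with the adipocyte mean as a covariate and -0.033 with the smooth muscle mean, so the fits do not single out either list. With the adipocyte covariate the mean difference was -0.17 for the cholesterol genes and 0.029 for the fatty acid genes.

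Enteric neuron and glia markers (8 of 10) averaged 0.041 and 0.33 in the Mthfd1S+/- mice, against -0.30 to 0.11 in WT, and fibroblast markers (6 of 6) 0.037 and 0.18, against -0.24 to 0.13. Macrophage markers (5 of 5) gave 0.096 and 0.023, against -0.13 to 0.11, and T and B cell markers (6 of 7) -0.12 and 0.053, against -0.076 to 0.15. Sebaceous gland and squamous markers (7 of 8), which would show skin at the anal margin, were dim, between 3.62 and 5.91 in single arrays. At an unadjusted p under 0.05 in limma, 3 of the 8 neuron and glia markers, 1 of the 10 smooth muscle markers and 1 of the 6 fibroblast markers were higher in Mthfd1S+/- mice, against 3.36% of all clusters. By the same rule 2 of the 10 adipocyte markers were lower, as was 1 marker each of absorptive colonocytes, goblet cells and the T and B cell list, against 2.44% of all clusters. All measured smooth muscle, neuron and glia, and fibroblast markers had the higher mean in Mthfd1S+/- mice, where 46.0% of all clusters had the lower mean in these mice. For each of these lists the mean of Mthfd1S+/- mouse 1 lay inside the WT range and that of mouse 2 above it. Of all the lists, 0 markers passed the adjusted threshold. The part of these cell types in the cholesterol and fatty acid values was not tested. The smooth muscle mean was highest (0.40) in Mthfd1S+/- mouse 2, the mouse with the lowest cholesterol mean (-0.48). With 6 arrays, that covariate cannot be told apart from other traits of this mouse.

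Of 9 further genes listed with cholesterol synthesis and measured, 0 passed an unadjusted p of 0.05 in limma in either direction (2.44% lower and 3.36% higher over all clusters, for this and the next lists). Mthfd1S+/- mouse 2 was the lowest for 4 (Aacs, Erg28, Cyb5b and Mmab), against 19.1% of all clusters. Mmab, named after its values were seen, is not an enzyme of the cholesterol route. Aacs, which makes acetoacetyl-CoA in the cytosol, read 8.66 and 7.81 in the Mthfd1S+/- mice, against 8.66, 8.26, 8.61 and 8.59 in the WT mice, and Erg28, a scaffold of the sterol demethylation enzymes, 10.22 and 9.75 in the Mthfd1S+/- mice, against 10.25, 10.16, 10.13 and 10.26 in the WT mice. Both had Mthfd1S+/- mouse 2 below all other mice, and Aacs also had WT mouse 2 as the next lowest. Cyb5b, an electron carrier, read 10.34 and 10.09 in the Mthfd1S+/- mice, against 10.28, 10.39, 10.31 and 10.36 in the WT mice, with Mthfd1S+/- mouse 2 again the lowest. The sterol reductase Lbr, which shares its step with Tm7sf2, read 8.37 and 8.34 in the Mthfd1S+/- mice, against 8.54, 8.44, 8.37 and 8.28 in the WT mice, and its lowest value was in WT mouse 4.

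Of 12 measured genes that process SREBPs and sense sterols, 0 passed in either direction and Mthfd1S+/- mouse 2 was the lowest for 2, near the 19.1% of all clusters, with list means of 0.029 and -0.012 in the Mthfd1S+/- mice, against -0.032 to 0.023 in WT. Erlin1, of the membrane complex that helps degrade sterol-regulated proteins, read 7.72 and 7.87 in the Mthfd1S+/- mice, against 8.03, 7.95, 7.85 and 7.97 in the WT mice. Rnf139, a ubiquitin ligase of the endoplasmic reticulum, had a log2 difference of -0.16 ± 0.098 (SE), Mylip, a liver X receptor target, 0.14 ± 0.11 and the nuclear receptor Rxrb 0.10 ± 0.088. Of 12 genes of cholesterol uptake, storage and export, 0 passed and Mthfd1S+/- mouse 2 was the lowest for 6, against 19.1% of all clusters. Npc1, which moves cholesterol out of lysosomes, had -0.24 ± 0.12, the lipoprotein receptor Scarb1 0.16 ± 0.089, and the exporters Abcg8 and Abca1 -0.16 ± 0.11 and 0.15 ± 0.15.

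Of 21 further genes of fatty acid and triglyceride synthesis, 0 passed in either direction and Mthfd1S+/- mouse 2 was the lowest for 9, against 19.1% of all clusters. Dgat2, of triglyceride assembly, read 8.55 and 8.32 in the Mthfd1S+/- mice, against 8.64, 8.49, 8.75 and 8.77 in the WT mice. The log2 differences were 0.14 ± 0.078 (SE) for Hacd2 and -0.15 ± 0.092 for Elovl1, both of fatty acid elongation, and 0.18 ± 0.11 for Gpam, which starts glycerolipid synthesis. Named after their values were seen, the desaturase gene Fads2 read 10.74 and 10.12 in the Mthfd1S+/- mice, against 10.71, 10.63, 10.61 and 10.57 in the WT mice, and Lpin1, a phosphatidate phosphatase, 8.14 and 7.07 in the Mthfd1S+/- mice, against 7.32, 6.63, 7.37 and 7.24 in the WT mice. Fads2 repeated the low value of Mthfd1S+/- mouse 2, and Lpin1 had its high value in Mthfd1S+/- mouse 1 and its low value in WT mouse 2.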

How the data were processed

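RNA of 6 colonic mucosa samples was measured on arrays. The log2 values deposited by the authors, 1 per transcript cluster and array, came from Affymetrix Expression Console according to the submitters' processing notes. The sources used here give neither version, summarisation, background correction nor build, and that the scale is log2 was read from the values (1.06 to 13.5). The number of arrays limits the precision (median SE of a log2 difference 0.106), and a change that normalization removed from all genes cannot be seen.

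Of 41345 rows, 23521 with exactly 1 gene symbol in the platform table were tested, Mthfd1S+/- against WT, with limma 3.58.1 in R 4.3.3 (two-sided, lmFit then eBayes, without covariates, Benjamini-Hochberg over all of them). Single values also had an exact two-sided permutation test, whose 15 arrangements allow no p below 0.0667. The limma step was tested on simulated data with independent noise and shifts larger than any difference of the 27 genes. That test does not cover differences of their size. Members and lists were chosen with earlier results of these data known. All 27 measured members are named, with up to 4 genes of smallest p per pathway list. Alternatives changed normalization, filter, rows, moderation, covariates and arrays. The replicate numbers were not used as pairs in the fit as reported (see the closing section). Neither rows with several symbols nor signals of single probes were used.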

Additional observations from a re-analysis of the deposited data

Results flagged for a closer look

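In the 4 WT mice, 3 of the 27 genes had 1 array far from the rest, with a gap to its neighbour above Dixon's 95% critical share of the group's range: Insig1 at 10.11, Fdft1 at 10.25 and Stard4 at 8.44, in each case as the lowest value and in WT mouse 2. The rule was applied to 29 groups, the 27 genes and both set means, and chance flags about 1 in 20 groups. Its share over all clusters was not computed, so whether 3 flags are many on these arrays is not known. The gaps were 0.932, 0.846 and 0.875 of the range, and the genes are not independent of each other.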

How the results depend on the processing

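No setting gave a cluster an adjusted p under 0.05 in limma or in unmoderated least squares, at 1363 clusters with an unadjusted p under 0.05 as reported; that count was 2600 with all rows tested, 2331 in the fit with a replicate block and 900 with the adipocyte covariate. It split into 573 lower and 790 higher as reported, 401 and 1110 with arrays centred on their medians, and 432 and 1078 after quantile normalization. Of the 27 genes, 1 (Pmvk) was under that p as reported, and 0 were with median centring, repeated quantile normalization, all rows, unmoderated least squares or the smooth muscle covariate. There were 3 with the replicate block (Sqle, Hsd17b7 and Scd1, without Pmvk), 1 other gene (Me1, higher) with the adipocyte covariate, 6 with the letter of the mouse identifier as a covariate, and 0 to 19 when 1 array was left out (0 without WT mouse 3, 19 without Mthfd1S+/- mouse 1). The mean cholesterol difference of -0.20 became -0.023 with the smooth muscle covariate, -0.17 with the adipocyte covariate and -0.30 with the identifier letter. With that letter all 20 cholesterol genes were lower, and the 6 genes under that p were all lower, 5 of them cholesterol genes. The mean cholesterol difference ran from -0.54 to 0.14 with 1 array left out, and that of the fatty acid genes, -0.10, from -0.30 to 0.091. The fatty acid mean also turned to 0.029 with the adipocyte covariate and 0.024 with the smooth muscle covariate, and was -0.17 with the identifier letter. The signs of single genes turned with the replicate block for Tm7sf2 (-0.027) and Acly (0.076), with the identifier letter for Tm7sf2 (-0.042) and Insig1 (-0.12), and with the adipocyte covariate for Srebf1 (0.027), Scd1 (0.0038) and Fasn (0.063). With the smooth muscle covariate they turned for Mvd (0.028), Lss (0.13), Nsdhl (0.065), Dhcr7 (0.068), Srebf2 (0.012), Stard4 (0.013), Srebf1 (0.080) and Elovl6 (0.0054). The cause of these changes was not tested.

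With 1 array left out, 23 of the 27 genes changed sign in at least 1 fit, each range running from the fit without Mthfd1S+/- mouse 1 to that without mouse 2 (the other way for Ggps1). The ranges were -0.79 to 0.23 for Hmgcs1, -0.47 to 0.075 for Mvk, -0.69 to 0.26 for Mvd, -0.65 to 0.15 for Fdps, -0.81 to 0.19 for Fdft1, -0.83 to 0.044 for Sqle, -0.94 to 0.41 for Lss, -0.71 to 0.16 for Cyp51, -0.14 to 0.15 for Tm7sf2, -0.77 to 0.12 for Msmo1, -0.59 to 0.16 for Nsdhl, -0.27 to 0.039 for Ebp, -0.43 to 0.022 for Sc5d, -0.37 to 0.17 for Dhcr7, -0.59 to 0.67 for Insig1, -0.26 to 0.11 for Srebf2, -0.36 to 0.16 for Stard4, -0.24 to 0.10 for Ggps1, -0.36 to 0.20 for Srebf1, -0.37 to 0.090 for Fasn, -0.63 to 0.091 for Acaca, -0.15 to 0.092 for Acly and -0.12 to 0.037 for Elovl6. Same-numbered arrays correlated at 0.117 and -0.044 after each group was centred on its own mean. The 2 Mthfd1S+/- arrays then mirror each other (0.117 and -0.117 with WT mouse 1). This check therefore cannot show whether the numbers pair the samples. The alternative of a second cluster per gene gave no value, since each gene had 1. Signals over background were not used here, so what brightness limits is unknown.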
